A study of Mus musculus with 9 samples.

Results

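Antioxidant enzymes are described here in mature mouse eggs as a set of 10 genes taken by symbol: Sod1, Sod2, Cat, Gpx1, Gpx4, Prdx1, Prdx2, Prdx3, Gsr and Gclc. They were taken by name and not by a cut on a measured value, but with earlier results of these data known. All 10 were found among the 30153 genes of the joined count tables. The samples were pools of metaphase II (MII) oocytes, eggs halted at the second meiotic division, and poly-A RNA of each pool was sequenced as 1 library. Every female carried the genotype Sycp3CreERT2/+; Rosa26nT-nG/+ on a mixed genetic background and was 4 weeks old, so the Cre and reporter alleles were shared by all groups. CreERT2 is a Cre recombinase that needs tamoxifen to act and is driven here from Sycp3, a gene of meiotic prophase. The nT-nG reporter gives red nuclei (tdTomato) in cells without recombination and green nuclei (GFP) in recombined cells. Ovulation was induced with 5 IU PMSG and, after 48 h, 5 IU hCG, and eggs were taken from the oviduct 13 h later, stripped of cumulus cells with hyaluronidase and sorted by hand under fluorescence. There were 3 libraries in each of the groups GFP High (pools of 15, 15 and 16 oocytes), GFP Low (49, 52 and 57) and RFP (87, 88 and 100). Pool size differed between the groups without overlap, so it cannot be told apart from the fluorescence class in any comparison below. The labels do not say whether pools of a group came from separate females, so p-values measure the spread between these pools.

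Respiration leaks superoxide, which the superoxide dismutases turn into hydrogen peroxide. Hydrogen peroxide is then removed by catalase, by glutathione peroxidases that draw on glutathione, and by peroxiredoxins that draw on thioredoxin. Glutathione is made by a pathway whose first and limiting step is glutamate-cysteine ligase, and its oxidised form is recycled by glutathione reductase with NADPH. A mature oocyte is transcriptionally silent and holds a large store of glutathione and of maternal mRNA. Because poly-A RNA was sequenced, mRNA levels here describe the poly-A part of that mRNA store.

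The catalytic residues of the peroxidases are shown first, because these enzymes carry most of the values below. A nearly identical copy of Gpx4 is shown beside it, because that copy bears on how reads are assigned. Gpx1 and Gpx4 use selenocysteine, encoded by a TGA codon that is read through instead of ending translation. Coding sequence of 45 bases around that codon is given from GENCODE M21 transcripts, with TGA in capitals. It is codon 47 of 201 in Gpx1 and codon 73 of 197 in Gpx4. The third sequence is that of Gpx4-ps2, a processed pseudogene that is annotated as transcribed and is nearly identical to Gpx4. The capital before TGA marks the base at which those 2 sequences differ.
Gpx1: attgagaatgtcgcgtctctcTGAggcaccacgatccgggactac
Gpx4: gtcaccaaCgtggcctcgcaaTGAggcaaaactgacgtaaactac
Gpx4-ps2: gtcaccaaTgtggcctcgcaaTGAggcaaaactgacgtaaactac

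Peroxiredoxins use a peroxidatic cysteine, whose codon is in capitals in the same kind of window. It is codon 52 of 199 in Prdx1, codon 51 of 198 in Prdx2 and codon 109 of 257 in Prdx3.
Prdx1: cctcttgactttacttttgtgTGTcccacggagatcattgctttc
Prdx2: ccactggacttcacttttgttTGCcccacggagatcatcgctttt
Prdx3: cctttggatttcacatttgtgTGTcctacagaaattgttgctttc
Of these 45 bases, Prdx1 and Prdx2 shared 38, Prdx1 and Prdx3 shared 35, and Prdx2 and Prdx3 shared 32. Over the whole coding sequence the identity was 70.7% for Prdx1 and Prdx2, 55.4% for Prdx1 and Prdx3, 54.6% for Prdx2 and Prdx3, and 52.6% for Gpx1 and Gpx4. Sod1 and Sod2, which are not related in fold, had 49.5%.

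Most counts of the 10 enzymes came from 3 cytosolic ones. Prdx1, Prdx2 and Sod1 together made up 89.4% to 93.2% of the counts of the 10 enzymes in each library, and the 10 together took 0.114% to 0.152% of all counts. Levels of different genes are set side by side per kilobase of the deposited gene length, as CPM (the share of library counts, scaled) per kb with TMM scaling between libraries, as a mean ± SD over all 9 libraries. Prdx2 stood at 169.8 ± 17.8 CPM per kb (rank 258 among all genes), and Prdx1 at 163 ± 16.5 (rank 269). Sod1 stood at 57.5 ± 5.88 (rank 963), Gpx4 at 21.4 ± 8.01, Prdx3 at 18.4 ± 1.86 and Gpx1 at 5.49 ± 1.26. Sod2 stood at 3.48 ± 0.697 CPM per kb, Gclc at 2.30 ± 0.506, Gsr at 0.574 ± 0.289 and Cat at 0.0493 ± 0.0666 (rank 20496). Neighbours in this order whose ranges over the 9 libraries overlapped were Prdx2 and Prdx1, Gpx4 and Prdx3, Gpx1 and Sod2, Sod2 and Gclc, and Gsr and Cat. The ranges of Prdx1 and Sod1, Sod1 and Gpx4, Prdx3 and Gpx1, and Gclc and Gsr did not overlap. The deposited length was 3970 bases for Sod1, 3043 for Prdx1 and 3050 for Prdx2. Their GENCODE transcripts used for sequence here have 641, 2294 and 1612 bases. The order, ranks and overlaps per kb therefore hold for the deposited length only, and levels on transcript length were not computed.

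**Figure D1:**
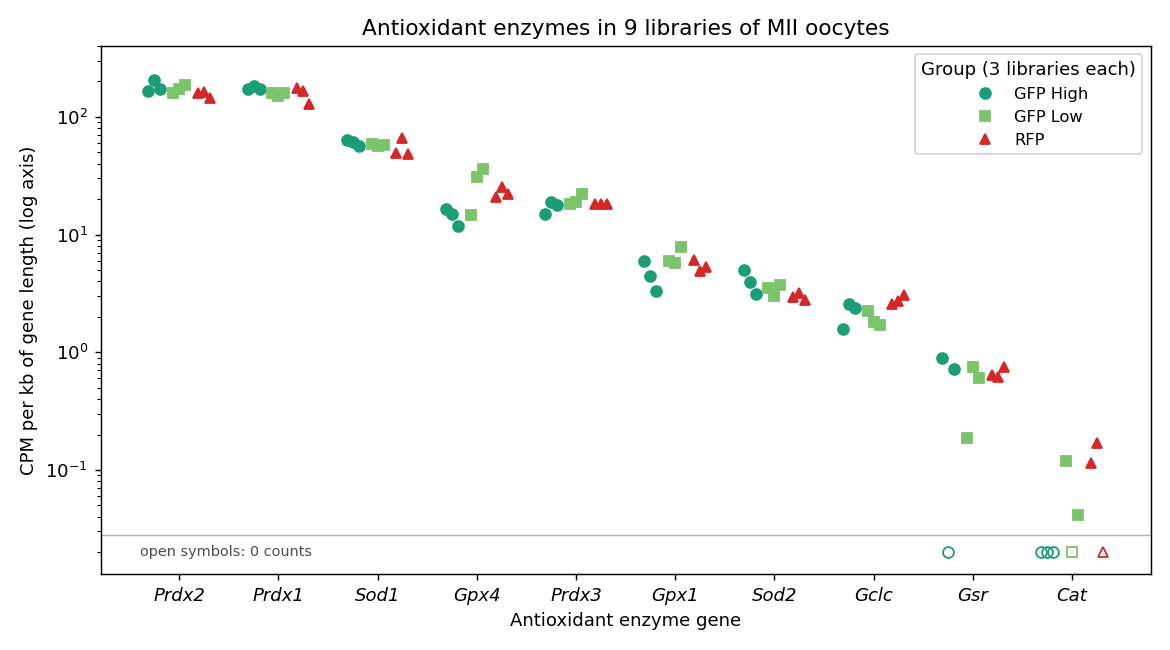
Level of each antioxidant enzyme in each of the 9 libraries, in TMM-scaled CPM per kb of gene length (log axis), with symbols by group and open symbols for libraries with 0 counts. Prdx2, Prdx1 and Sod1 lie above the other enzymes in every library, between 48.1 and 207 CPM per kb, and Cat reaches no more than 0.168.

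By its title the study is about a pause in follicle growth, and it sorted eggs by reporter colour. Each enzyme was compared between the 3 groups with edgeR's quasi-likelihood test on counts. Fold changes are log2 values of the first group over the second, and p-values were adjusted by Benjamini-Hochberg over all genes tested. No enzyme passed an adjusted p of 0.05 in any comparison, and 9 of the 10 were tested, Cat having failed the filter on low counts. Between GFP High and RFP 0 of the 9 passed, beside 0.0135% of all genes (2 of 14829, eGFP and Gm2042). Between GFP Low and RFP 0 of 9 passed, beside 0.0197% (3 of 15199, eGFP, Gm2042 and Rps28). Between GFP High and GFP Low 0 of 9 passed, beside 0% of 14785 genes. At an unadjusted p under 0.05 in edgeR, 2 of 9 enzymes stood out for GFP High over RFP (4.09% of all genes, 606 genes), 1 of 9 for GFP Low over RFP (2.62%, 398 genes) and 2 of 9 for GFP High over GFP Low (3.77%, 558 genes). DESeq2 called 0 enzymes in each comparison, and the authors' deposited tables hold 0 enzymes with an adjusted p under 0.05 in each.

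The median log2 fold change of the 9 enzymes tested was -0.07 for GFP High over RFP, 0.13 for GFP Low over RFP and 0.07 for GFP High over GFP Low. Over all genes tested the medians were -0.0056, -0.0041 and -0.0048. Between GFP High and RFP the groups did not overlap for 1 enzyme that was higher in GFP High (Prdx2), beside 4.88% of all genes, and for 1 that was lower (Gpx4), beside 6.99%. Between GFP Low and RFP 1 enzyme was higher in all GFP Low libraries (Prdx3), beside 3.59% of genes, and 1 was lower (Gclc), beside 4.11%. Between GFP High and GFP Low 1 was higher without overlap (Prdx1), beside 4.69%, and 0 were lower, beside 6.84%. The comparisons share libraries, so their values are not independent of each other.

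**Figure D2:**
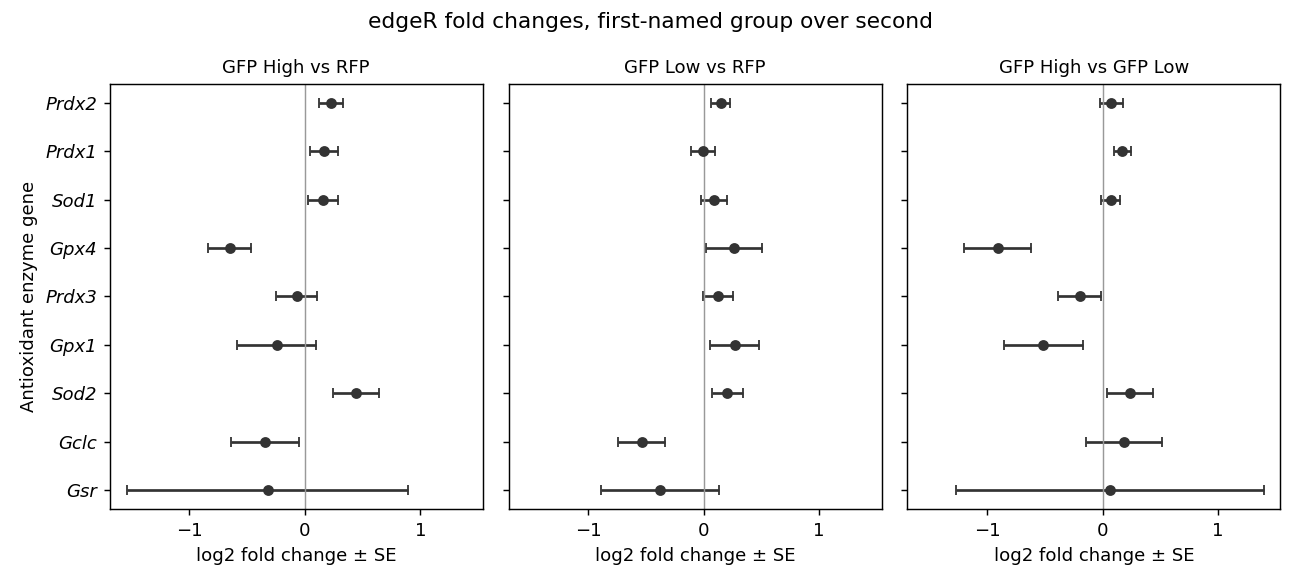
Log2 fold change (edgeR) of each tested antioxidant enzyme in the 3 comparisons, with bars of 1 standard error. Gpx4 lies at -0.65 for GFP High over RFP and -0.91 for GFP High over GFP Low, and no point passed an adjusted p of 0.05.

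Superoxide dismutases were present in every library. Sod1, the copper-zinc enzyme of the cytosol (ENSMUSG00000022982, mm10 chr16:90220754-90226329, + strand), gave 252, 245 and 224 CPM across the GFP High pools, 233, 226 and 228 across GFP Low and 196, 261 and 191 across RFP. The groups overlapped, with the highest and the lowest library both in RFP. The log2 fold change of Sod1 was 0.16 (SE 0.13) for GFP High over RFP, 0.09 (SE 0.11) for GFP Low over RFP and 0.07 (SE 0.08) for GFP High over GFP Low. Sod1 overlaps Scaf4 on the opposite strand by 650 bases, and the strand setting of the counting is not given in the sources used here. Reads of that overlap can therefore not be told apart, and Scaf4 stood at 159 CPM.

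Sod2, the manganese enzyme of mitochondria (ENSMUSG00000006818, chr17:13006846-13040063, + strand), gave 50.2, 39.6 and 31.2 CPM across the GFP High pools, 35.3, 29.9 and 37.6 across GFP Low and 29.6, 32.2 and 27.6 across RFP. The highest library belonged to GFP High, and the third GFP High library lay inside the RFP range. Between GFP High and RFP, Sod2 stood at 40.3 ± 9.51 against 29.8 ± 2.28 CPM (SD, n = 3 each), a log2 fold change of 0.44 (SE 0.20) with an edgeR p of 0.0491 and an adjusted p of 0.997. The other 2 comparisons gave 0.20 (GFP Low over RFP) and 0.24 (GFP High over GFP Low).

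Catalase, which splits hydrogen peroxide in peroxisomes, was close to absent from these libraries. Cat (ENSMUSG00000027187, chr2:103453849-103485160, - strand) had 0 counts in all 3 GFP High libraries, 6, 0 and 3 across GFP Low and 8, 10 and 0 across RFP. By the sampling of reads alone, a count of 0 allows up to 3 counts, or 0.11 to 0.135 CPM in the 5 libraries at 0. Loss of RNA before sequencing is not covered by this limit. In the second GFP High library Gsr also had 0 counts, beside 67 and 44 in the other GFP High libraries. Cat failed the edgeR filter on low counts. DESeq2, which tested it, gave unadjusted p-values of 0.142 for GFP High over RFP, 0.634 for GFP Low over RFP and 0.285 for GFP High over GFP Low.

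Among the glutathione peroxidases, Gpx1 reduces hydrogen peroxide in cytosol and mitochondria, and Gpx4 reduces lipid peroxides within membranes. Gpx1 (ENSMUSG00000063856, chr9:108338903-108340343, + strand) gave 8.54, 6.34 and 4.76 CPM across the GFP High pools, 8.51, 8.28 and 11.3 across GFP Low and 8.79, 7.02 and 7.57 across RFP. All 3 groups overlapped, and both extremes came from the GFP-positive groups. The log2 fold change of Gpx1 was -0.24 (SE 0.34) for GFP High over RFP, 0.27 (SE 0.21) for GFP Low over RFP and -0.51 (SE 0.34) for GFP High over GFP Low.

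Gpx4 (ENSMUSG00000075706, chr10:80047166-80056439, + strand) had the smallest unadjusted p of the 9 enzymes tested, both for GFP High over RFP and for GFP High over GFP Low. It gave 28.5, 25.7 and 20.2 CPM across the GFP High pools, 25.5, 52.6 and 62.0 across GFP Low and 36.0, 43.6 and 37.8 across RFP. Every GFP High library lay below every RFP library, while the first GFP Low library lay inside the GFP High range and the other 2 above all RFP libraries. GFP High stood at 24.8 ± 4.22 and RFP at 39.1 ± 3.99 CPM (SD, n = 3 each), a log2 fold change of -0.65 (SE 0.19) with an edgeR p of 0.00586 and an adjusted p of 0.997. Against GFP Low (46.7 ± 18.95 CPM) the log2 fold change was -0.91 (SE 0.29), with an edgeR p of 0.0112 and an adjusted p of 0.998. GFP Low over RFP gave 0.26 (SE 0.24). Without the filter on low counts edgeR's adjusted p for GFP High over GFP Low was 0.00758, and it lay between 0.359 and 1.00 under all other alternatives.

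Gpx4-ps2 (ENSMUSG00000110841, chr10:45875291-45876086, + strand) was highest in GFP High, the group in which Gpx4 was lowest on average. It matches the Gpx4 transcript over 762 bases with 99.7% identity, 2 mismatches and 0 gaps. Counted from base 1 of the Gpx4 transcript, the substitutions are C348T and C663T, with the Gpx4 base first. They lie in codons 68 and 173, and each is the capital in the pairs below.
Gpx4 at the first: tgcatcgtcaccaaCgtggcctcgcaatg
Gpx4-ps2 at the first: tgcatcgtcaccaaTgtggcctcgcaatg
Gpx4 at the second: ctcattgataagaaCggctgcgtggtgaa
Gpx4-ps2 at the second: ctcattgataagaaTggctgcgtggtgaa
Reads of the shared stretch that cover neither base cannot be assigned by sequence, so the split of counts between both loci is uncertain. Gpx4-ps2 gave 47.4, 69.3 and 46.3 CPM across the GFP High pools, 33.3, 8.70 and 15.5 across GFP Low and 13.96, 24.4 and 9.42 across RFP. Every GFP High library lay above every other library.

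The mean of Gpx4-ps2 was 54.3 ± 12.9 CPM for the GFP High pools and 15.9 ± 7.65 for RFP (SD, n = 3 each), a log2 fold change of 1.78 (SE 0.33) with an edgeR p of 2.82e-04 and an adjusted p of 0.997. DESeq2's adjusted p for that difference was 1.20e-04, and the authors' deposited table gives a log2 fold change of 1.79 with an adjusted p of 1.21e-04. With the replicate number as a block, edgeR's adjusted p was 0.0420. For GFP High over GFP Low the log2 fold change was 1.51 (SE 0.40), with an edgeR p of 0.00358 and an adjusted p of 0.998, and 1.85e-10 without the filter on low counts. GFP Low over RFP gave 0.26 (SE 0.41). Without the first GFP Low library the log2 fold change of Gpx4-ps2 was 2.17 for GFP High over GFP Low and -0.39 for GFP Low over RFP. Without the third RFP library the latter was -0.0087.

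The counts of Gpx4 and Gpx4-ps2 were also summed. How reads that map to both loci were counted is not given in the sources used here, and it can affect the sum as well as the split. The sum was 75.9, 95.0 and 66.6 CPM across the GFP High pools, 58.7, 61.3 and 77.4 across GFP Low and 49.9, 68.0 and 47.3 across RFP, so all 3 groups overlapped. The means were 79.2 ± 14.5, 65.8 ± 10.1 and 55.1 ± 11.3 CPM. Fitted in place of Gpx4, the sum turned the direction: its log2 fold change for GFP High over RFP was 0.53 (SE 0.19), with an edgeR p of 0.0173 and an adjusted p of 0.997. The log2 fold change of the sum for GFP High over GFP Low was 0.27 (SE 0.17), and for GFP Low over RFP 0.26 (SE 0.15). The share of the sum counted as Gpx4 was 37.5%, 27.1% and 30.4% across the GFP High pools, 43.4%, 85.8% and 80.0% across GFP Low and 72.0%, 64.2% and 80.1% across RFP. All GFP High shares lay below those of both other groups, and 1 GFP Low library lay between GFP High and RFP. The share itself was not tested.

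**Figure D3:**
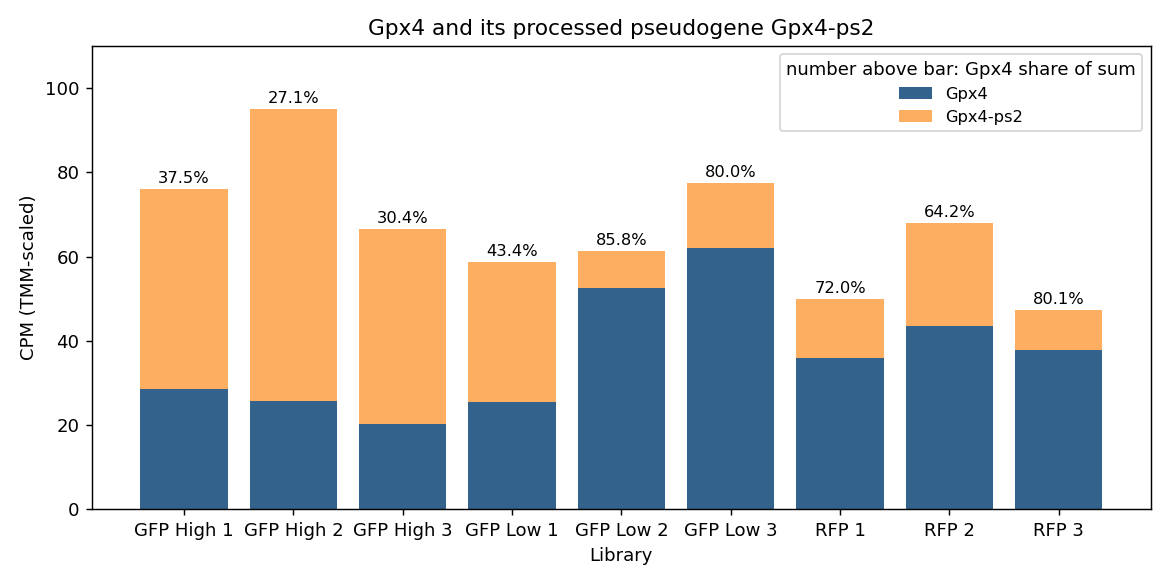
CPM of Gpx4 and of its near-identical pseudogene Gpx4-ps2, stacked for each of the 9 libraries, with the share counted as Gpx4 written above each bar. The stacks reach 47.3 to 95.0 CPM, and the share counted as Gpx4 lies between 27.1% and 37.5% in GFP High and between 64.2% and 80.1% in RFP.

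Prdx1 and Prdx2 had higher levels per kb than Gpx1, Gpx4 and Prdx3, and Prdx3 overlapped Gpx4. Prdx1, a cytosolic enzyme (ENSMUSG00000028691, chr4:116685544-116700822, + strand), gave 528, 557 and 521 CPM across the GFP High pools, 487, 456 and 486 across GFP Low and 539, 507 and 391 across RFP. GFP High lay above GFP Low without overlap, while RFP held both a library above 2 of the GFP High libraries and the lowest of all. GFP High stood at 536 ± 18.6 and GFP Low at 476 ± 17.4 CPM (SD, n = 3 each), a log2 fold change of 0.17 (SE 0.07) with an edgeR p of 0.0355 and an adjusted p of 0.998. It was 0.16 (SE 0.12) for GFP High over RFP, and for GFP Low over RFP -0.01 (SE 0.11).

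Prdx2, also cytosolic and abundant in red blood cells (ENSMUSG00000005161, chr8:84969587-84974834, + strand), gave 501, 631 and 527 CPM across the GFP High pools, 485, 525 and 565 across GFP Low and 489, 495 and 443 across RFP. Every GFP High library lay above every RFP library, the first by a small margin. GFP High stood at 553 ± 68.9 and RFP at 476 ± 28.7 CPM (SD, n = 3 each), a log2 fold change of 0.22 (SE 0.11) with an edgeR p of 0.0598 and an adjusted p of 0.997. GFP Low over RFP gave 0.15 (SE 0.08), and GFP High over GFP Low 0.08 (SE 0.10). Of 7 red blood cell markers 3 were analysed here, the 4 globin genes of the list not among them. These 3 were at 0 in all GFP High libraries and summed to at most 1.04 CPM elsewhere. Prdx2 overlaps Rnaseh2a (181 bases, 4.82 CPM) and Junb (351 bases, 0.554 CPM) on the opposite strand.

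Prdx3, the mitochondrial enzyme (ENSMUSG00000024997, chr19:60864051-60874556, - strand), gave 21.9, 27.97 and 26.4 CPM across the GFP High pools, 26.9, 28.1 and 32.7 across GFP Low and 26.9, 26.8 and 26.8 across RFP. The GFP Low libraries lay above RFP, the lowest of them barely. The log2 fold change was -0.07 (SE 0.18) for GFP High over RFP, 0.13 (SE 0.13) for GFP Low over RFP and -0.20 (SE 0.19) for GFP High over GFP Low. The coefficient of variation of Prdx3 within RFP was 0.196%, the smallest of any of the 8 enzymes at 5 CPM or more in any group.

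Prdx1, Prdx2 and Sod1 also have processed copies, which were picked by sequence after their values had been seen. Gm21399 matches Prdx1 over 597 bases with 98.3% identity and gave 11.1, 14.03 and 8.63 CPM across the GFP High pools, 5.62, 6.87 and 6.42 across GFP Low and 8.19, 8.42 and 6.16 across RFP. Its log2 fold change for GFP High over GFP Low was 0.84, with an edgeR p of 0.0216 and an adjusted p of 0.998. Tdpx-ps1, a copy of Prdx2 with 96.3% identity, stood at 0.661 CPM, and Gm8566, a copy of Sod1 with 97.8% identity, at 2.03 CPM. Unlike Gpx4-ps2, these copies held few counts beside their parent genes.

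Glutathione synthesis and recycling are represented by Gclc and Gsr. Gclc, the catalytic subunit of glutamate-cysteine ligase (ENSMUSG00000032350, chr9:77754535-77794485, + strand), gave 5.99, 9.76 and 8.94 CPM across the GFP High pools, 8.51, 6.79 and 6.45 across GFP Low and 9.62, 10.4 and 11.6 across RFP. Every GFP Low library lay below every RFP library, and GFP High overlapped both. GFP Low stood at 7.25 ± 1.10 and RFP at 10.5 ± 0.986 CPM (SD, n = 3 each), a log2 fold change of -0.54 (SE 0.20) with an edgeR p of 0.0202 and an adjusted p of 1.00. GFP High over RFP gave -0.35 (SE 0.29), and GFP High over GFP Low 0.18 (SE 0.33).

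Gsr, glutathione reductase (ENSMUSG00000031584, chr8:33652523-33698163, + strand), gave 67, 0 and 44 counts across the GFP High pools, 10, 54 and 46 across GFP Low and 47, 39 and 56 across RFP. The second GFP High library and the first GFP Low library were low, and the groups overlapped. Its log2 fold changes had wide errors, at -0.32 (SE 1.22) for GFP High over RFP, -0.38 (SE 0.51) for GFP Low over RFP and 0.06 (SE 1.33) for GFP High over GFP Low.

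Libraries of a group differed among themselves. Over the 8 enzymes at 5 CPM or more, the coefficient of variation between the 3 libraries ran from 3.48% to 29.0% in GFP High (median 14.7%), from 1.49% to 40.6% in GFP Low (median 10.98%) and from 0.196% to 18.1% in RFP (median 9.78%). The highest value in GFP Low was that of Gpx4.

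The other genes of these systems were taken as a list of named genes, of which 78 were found in the tables and 64 passed the filter on low counts. In edgeR 0 of the 64 passed an adjusted p of 0.05 in each of the 3 comparisons. At an unadjusted p under 0.05 there were 1 for GFP High over RFP, 1 for GFP Low over RFP and 2 for GFP High over GFP Low. Over all genes tested the shares were 4.09%, 2.62% and 3.77%. The median log2 fold changes were 0.04, 0.01 and 0.06, with 35, 35 and 36 of the 64 above 0. Over all genes tested, 7314 of 14829, 7439 of 15199 and 7309 of 14785 lay above 0. Of the 6 selenoprotein synthesis genes 4, 6 and 3 lay above 0 in the same order of comparisons, with 0 called in each. Of the genes tested for GFP High over RFP, 7 of 10 glutathione S-transferases and 2 of 7 NADPH-supply genes lay above 0, with 0 called in each. The other lists gave 2 of 2 (other glutathione peroxidases and superoxide dismutase), 2 of 6 (other peroxiredoxins and sulfiredoxin), 2 of 5 (thioredoxin system) and 2 of 4 (glutaredoxins). Glutathione synthesis and cystine supply gave 5 of 7, the Nrf2 list 5 of 11, and metal handling and other redox protection 4 of 6.

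By level, the NADPH-supply gene G6pdx, the first enzyme of the pentose phosphate pathway, led the list with a mean of 181 CPM per kb. Its range over the 9 libraries, 152 to 195 CPM per kb, overlapped those of Prdx2 (145 to 207) and Prdx1 (129 to 183). Me1 (malic enzyme, 111), Txnip (an inhibitor of thioredoxin, 109), Fth1 (the ferritin heavy chain, 105) and Ggct (an enzyme of the gamma-glutamyl cycle, 95.2 CPM per kb) followed. At a mean of 1 CPM or more were 7 of 8 genes of NADPH supply, 5 of 6 of the thioredoxin system, 6 of 6 of selenoprotein synthesis and 11 of 11 of the Nrf2 list. The share was smaller among the other glutathione peroxidases and superoxide dismutases, 2 of 6, and among glutathione S-transferases, 9 of 15.

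**Figure D4:**
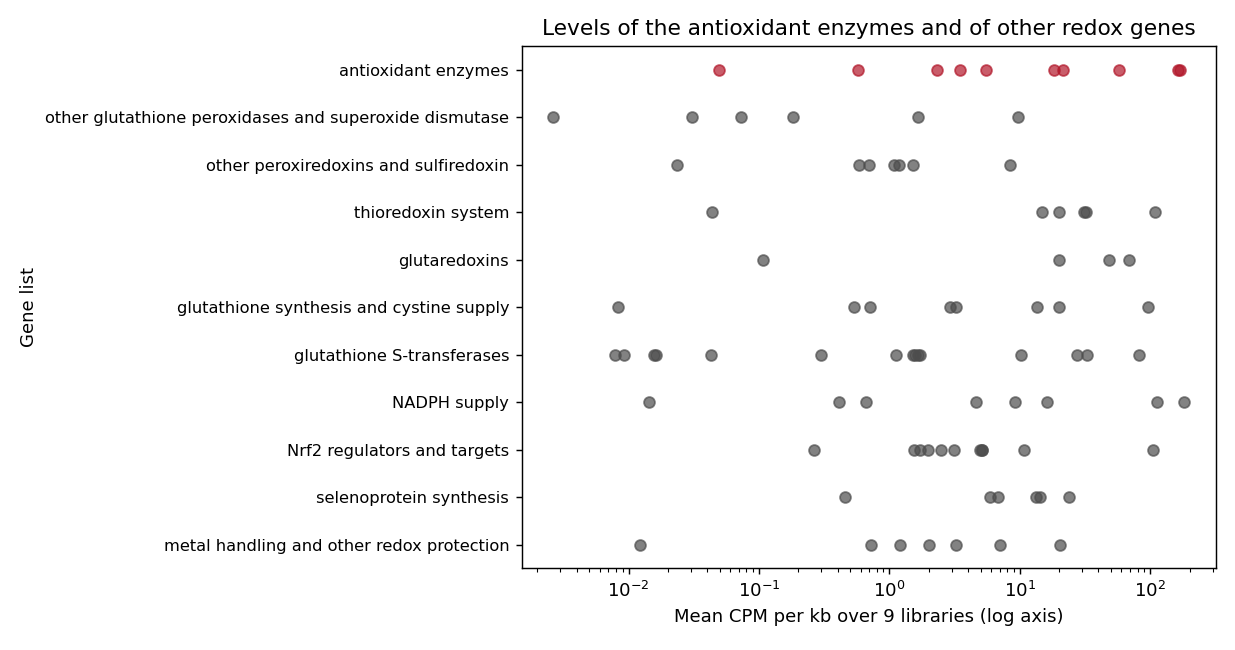
Mean level in CPM per kb (log axis) of the listed genes of the antioxidant systems, by functional list, with 1 point per gene and the antioxidant enzymes in red in the top row. G6pdx reaches 181 CPM per kb, and Prdx2 and Prdx1 stand at 169.8 and 163.

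Genes of that list with the smallest p are named by rule. Park7, a redox-sensitive protein that protects mitochondria, gave 59.2, 72.0 and 52.3 CPM across the GFP High pools, 44.4, 47.5 and 49.9 across GFP Low and 42.4, 42.3 and 39.6 across RFP. All GFP High libraries lay above all others, and GFP Low lay above RFP. Of all genes tested, 4.88% were higher without overlap for GFP High over RFP. The share was 4.69% for GFP High over GFP Low and 3.59% for GFP Low over RFP. The log2 fold change of Park7 for GFP High over RFP was 0.57 (SE 0.16), with an edgeR p of 0.00475 and an adjusted p of 0.997. For GFP High over GFP Low it was 0.37 (SE 0.15), with an edgeR p of 0.0350 and an adjusted p of 0.998. Gstm5, a glutathione S-transferase, gave 36.5, 43.8 and 41.9 CPM across the GFP High pools, 27.0, 32.6 and 34.6 across GFP Low and 35.8, 32.3 and 31.7 across RFP, with an edgeR p of 0.0831 for GFP High over RFP. For GFP High over GFP Low its log2 fold change was 0.38 (SE 0.17), with an edgeR p of 0.0478 and an adjusted p of 0.998.

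Prdx4, the peroxiredoxin of the endoplasmic reticulum, gave 2.77, 5.00 and 3.15 CPM across the GFP High pools, 2.01, 2.60 and 1.87 across GFP Low and 4.26, 3.42 and 3.64 across RFP. GFP Low lay below RFP without overlap, beside 4.11% of all genes tested. The log2 fold change was -0.80 (SE 0.32), with an edgeR p of 0.0265 and an adjusted p of 1.00. Hmox1, the heme-degrading enzyme induced by oxidative stress, gave 5.33, 0 and 2.61 CPM across the GFP High pools, 5.72, 3.44 and 4.90 across GFP Low and 2.53, 3.25 and 3.41 across RFP. Its log2 fold change for GFP Low over RFP was 0.61 (SE 0.30), with an edgeR p of 0.0655.

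Promoter sequence was searched for the core of the antioxidant response element, the motif bound by Nrf2, as TGACNNNGC on both strands, from 250 bases before to 50 after each start in the RefSeq table of GRCm38.p6. The table holds 11 promoters of 8 of the enzymes, with Gsr and Gclc not among them. A match lay in 2 of the 11 (18.2%), beside 12.4% of all 32851 promoters of that length in the table. The matches are shown on the gene's strand with 10 bases either side and the match, which reads on the opposite strand, in capitals.
Prdx1: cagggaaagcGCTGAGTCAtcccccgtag
Sod1: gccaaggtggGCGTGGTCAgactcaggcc
The Prdx1 match begins at -133 from the start, in the promoter chr4:116685349-116685648, and overlaps TGAGTCA, the AP-1 motif. The Sod1 match begins at -56, in the promoter chr16:90220512-90220811. A match of these letters is a description of the sequence.

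Facts of the libraries bear on all of these values. Library totals ran from 19381677 to 27746256 counts. The reporter genes followed the sorting, with 869 to 1081 eGFP counts across GFP High, 282 to 662 across GFP Low and 0 to 16 across RFP. Counts of tdTomato were 0 to 2 across GFP High, 16 to 35 across GFP Low and 46 to 94 across RFP. The GFP Low pools thus also held RNA of the red reporter. All 14 oocyte markers were above 0 in every library and summed to 12177 to 14335 CPM. Markers of cumulus and granulosa cells without Nr5a2, left out after its values had been seen because it made up most of the sum, reached 13.0 to 63.4 CPM across GFP High, 17.6 to 61.6 across GFP Low and 20.04 to 84.3 across RFP. These markers were highest in the first GFP High, the first GFP Low and the second RFP library, and 2 to 12 of the 17 were at 0 in a library. In those 3 libraries Sod1 was the highest of its group and Prdx3 the lowest. Every other enzyme changed place between them. The part of cumulus RNA in the enzyme values was not tested. Without those 3 libraries 0 of 9 enzymes were called in each comparison, and Gpx4 gave a log2 fold change of -1.32, and Gpx4-ps2 of 2.25, for GFP High over GFP Low. In pooled eggs, a lower level in every egg and a lower share of eggs holding an mRNA cannot be told apart.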

How the data were processed

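Poly-A RNA of pooled MII oocytes was sequenced in 9 libraries, 3 per group. Per the submitters' processing notes, fastp, HISAT2 2.0.5, featureCounts 1.5.0-p3, DESeq2 1.20.0 and mm10 were used, and no role or order is given. A table per comparison (3 in all) was deposited, holding raw read counts made by the authors, a normalised signal, FPKM values, log2 fold changes, p-values and adjusted p-values. Only the deposited counts entered tests. The authors' deposited log2 fold change and adjusted p-value are quoted where named, and the deposited normalised signal entered no result. FPKM served only as an alternative measure of the enzyme levels, whose values are not given here. The tables were joined by gene ID into 30153 genes. The 223821 counts found in more than 1 table differed in 0 cases, and 178 genes that a table lacked were set to 0 there.

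Genes were filtered with filterByExpr, scaled by TMM and tested with edgeR 4.0.16 (quasi-likelihood) in R 4.3.3 on the 6 libraries of each comparison, with Benjamini-Hochberg adjustment over all genes tested and a threshold of 0.05. SE is the log2 fold change over the root of F. Copies were transcripts matching with at least 90% identity over 200 bases and 50% of the copy (BLAST+ 2.17.0, GENCODE M21). CPM per kb uses the deposited gene length. Alternatives were other scaling, no filter or a mean of 50 counts, DESeq2 1.42.0, limma-voom 3.58.1, other edgeR settings, a fit of all 9 libraries, a replicate block and each library left out, and, chosen after seeing the data, copies summed with their enzyme and the library of each group with most cumulus marker RNA left out. Other pathway genes are named where they had the smallest p in a comparison or the highest CPM per kb. The script was tested on simulated data. The enzymes and gene lists were chosen with earlier results of these data known.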

Additional observations from a re-analysis of the deposited data

How the results depend on the processing

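Of 306 enzyme fold changes under alternatives other than leaving out 1 library, 295 kept direction and side of the threshold. The number of enzymes called was 0 throughout, except 1 (Gpx4, log2 -0.92) for GFP High over GFP Low without a filter. Genes called for GFP High over RFP (2) were 16 without a filter, 12 with DESeq2, 1 with limma-voom, 4 with the replicate block, 0 without the libraries with most cumulus marker RNA, and 0 to 2 leaving out 1 library (0 when RFP 2, RFP 3, GFP High 1 or GFP High 3 was left out). For GFP Low over RFP (3) they were 34, 10 and 1 for the first 3 settings, and 2 to 3 leaving out 1 library. For GFP High over GFP Low (0) they were 16 without a filter, 4 with DESeq2, and 0 to 1 (1 without GFP High 3). Summing copies turned Gpx4 to 0.53 for GFP High over RFP and 0.27 for GFP High over GFP Low. Prdx1 for GFP Low over RFP, near 0, turned to 0.0070 with limma-voom, 0.0053 with the replicate block and 0.022 without the cumulus libraries, where Prdx3 for GFP High over RFP was 0.018. Gsr for GFP High over GFP Low was -1.52 with limma-voom, -0.0018 with bias-adjusted deviances, -0.43 with the block and -0.91 without the cumulus libraries. The causes were not tested. Leaving out 1 library, sign changes occurred for Prdx3 (-0.15 to 0.018) and Gsr (-0.91 to 0.25) for GFP High over RFP, for Gpx4 (-0.00028 to 0.55), Prdx1 (-0.14 to 0.084) and Gsr (-0.75 to 0.0067) for GFP Low over RFP, and for Prdx2 (-0.034 to 0.14) and Gsr (-0.52 to 0.64) for GFP High over GFP Low. Same-numbered libraries did not meet the bar for pairing (a correlation over 0.1 in every pair of a comparison): the correlations of their deviations were -0.109 to 0.137, and in 3 of the 9 pairs both libraries correlated best with their own number, and the block changed no enzyme call. Gsr and Cat are limited by low counts.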
